A study of Mus musculus with 6 samples.

Results

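Activated group 2 innate lymphoid cells (aILC2s) of the lung contain mRNA for a set of RNA-binding proteins that set how long cytokine transcripts last. This report describes 10 of these genes, chosen by name, with no measured value in the rule although earlier results of these data were known: *Zfp36*, *Zfp36l1*, *Zfp36l2*, *Zc3h12a*, *Zc3h12d*, *Rc3h1*, *Rc3h2*, *Elavl1*, *Hnrnpd* and *Khsrp*. All 10 were among the 16381 genes listed with a value, and all 10 were among the 14419 genes tested. The cells were sorted from lungs of wild type BALB/cJ mice, given by the study's methods as females of 6 to 8 weeks, after intranasal IL-33 at 0.5 µg per day for 3 days. They were then cultured for 24 h in the presence of melatonin at 250 µM or of DMSO alone (vehicle), in 3 samples per group, and their RNA was sequenced in bulk. IL-33 is the epithelial alarmin that activates these cells, and every sample in both groups came from IL-33-challenged mice.

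Many cytokine mRNAs are short-lived because their 3′ UTRs carry AU-rich elements or small stem-loops. The ZFP36 proteins (tristetraprolin and its relatives) bind AU-rich elements and recruit deadenylases, Regnase-1 (*Zc3h12a*) is an endonuclease that cuts at stem-loops, and the Roquins (*Rc3h1*, *Rc3h2*) bind stem-loops and recruit deadenylases. HuR (*Elavl1*) binds the same AU-rich class and is best known for stabilising its targets, while AUF1 (*Hnrnpd*) and KSRP (*Khsrp*) are known mainly for promoting decay. Several of these regulators also act on their own mRNA or on each other's. The sequencing measured the abundance of each mRNA after 24 h, and no decay rate was measured.

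Sites of the 2 classes occurred in the 3′ UTRs of the regulators themselves, and those below are shown because they are the elements through which members of this set could be bound by each other. Positions are on GRCm39 (mm39) in the canonical GENCODE M39 transcript, each sequence is written 5′ to 3′ on the transcript strand with T for U, and 6 flanking bases are in lower case. Capitals mark the AU-rich nonamer TTATTTATT, which contains the heptamer TATTTAT, in the 3 *Zfp36* family genes on the minus strand at chr7:28076380-28076400, chr12:80154945-80154965 and chr17:84492346-84492366.
Zfp36: acgactTTATTTATTgtatta
Zfp36l1: gttggaTTATTTATTttagaa
Zfp36l2: tttaacTTATTTATTatcttg
Capitals in the next set mark stem-loops, searched for as a stem of 5 base pairs closing a loop of pyrimidine, purine and pyrimidine, in the 3′ UTR of *Zc3h12a* on the minus strand at chr4:125012857-125012881, chr4:125012675-125012699 and chr4:125012451-125012475.
Zc3h12a a: ctgttgATACACATTGTATctctgt
Zc3h12a b: tagttaGGCACCATGTGCCtgctct
Zc3h12a c: cgagatTTAAATATTTTAAatgaaa
The 2 Roquin genes shared 1 stem-loop with the same capital letters, at chr1:160799225-160799249 on the plus strand for *Rc3h1* and chr2:37263816-37263840 on the minus strand for *Rc3h2*.
Rc3h1: ccaataACTTCTGTGAAGTtgcctt
Rc3h2: taattaACTTCTGTGAAGTtgttta

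Counted over whole 3′ UTRs, *Zfp36*, *Zfp36l1* and *Zfp36l2* each held 3 heptamers, of which 1 lay inside a nonamer. *Elavl1* held 9 heptamers and 8 nonamers in 7024 bases, the most in the set. The nonamers start at bases 3794 to 3840 of the 3′ UTR, and most overlap a neighbour. Of the 379 3′ UTRs of similar length, its own included, 0.528% held at least as many nonamers. *Rc3h2* held 4 heptamers, *Rc3h1* 2 and *Hnrnpd* 1, while *Zc3h12a*, *Zc3h12d* and *Khsrp* held none. For comparison, 31.7% of the 12825 listed genes with a 3′ UTR held a heptamer, 8.75% held a nonamer and 25.7% held a stem-loop of this kind. *Zc3h12a* held its 3 stem-loops in a 3′ UTR of only 856 bases. Of the 1482 3′ UTRs of similar length, its own included, 0.135% held at least as many. Its stem-loop c is made of A and T alone. *Rc3h1* held 4 stem-loops and *Rc3h2* 2, though some of these are alternating A and T runs that satisfy the search by repetition. A match of letters describes a sequence and does not show binding, and only the transcript strand was searched.

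The libraries held between 17056267 and 20511700 estimated counts. All 13 ILC2 markers were listed, with a summed normalised count of 219942 to 234105 in vehicle and 152930 to 171686 in melatonin samples. Of these, 7 were lower and 2 were higher, beside 24.7% lower and 24.5% higher of all genes tested. The log2 fold changes of the lower ones were -2.22 (*Il13*), -2.16 (*Klrg1*), -1.69 (*Areg*), -1.06 (*Il7r*), -0.85 (*Id2*), -0.77 (*Il2ra*) and -0.75 (*Il5*). Of all the markers, *Il5* and *Il2ra* were the most abundant. The higher ones were *Il1rl1* (0.63) and *Rora* (0.64), and *Gata3* was at 0.07. *Kdm5d*, *Uty*, *Ddx3y* and *Eif2s3y*, which lie on the Y chromosome, had counts in the 3 vehicle samples and in melatonin replicate 1 and were at 0 in melatonin replicates 2 and 3, where *Xist* was at 579 and 1091 against at most 13.6 elsewhere, so the libraries do not all match the stated females. Values of the regulators that turn on these libraries are therefore also given without melatonin replicates 2 and 3. Library numbers in the labels were 20 to 22 for melatonin and 32 to 34 for vehicle, so the treatment and a batch along these numbers cannot be told apart. The labels do not say that samples came from separate mice or cultures, so the p-values measure only the spread between these samples.

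Of the 10 regulators, 1 was higher with melatonin (*Zfp36l1*), 2 were lower (*Zc3h12d* and *Rc3h2*) and 7 did not pass the test, which was limma on log2(normalised count + 1) with Benjamini-Hochberg adjustment over all 14419 genes and a threshold of 0.05. Across all genes tested, 49.2% passed in either direction, 24.5% as higher and 24.7% as lower, beside which 3 of 10 is given as a count without a test. The groups did not overlap with melatonin above for 1 regulator and with melatonin below for 3, against 30.0% and 30.3% of all genes. The median log2 fold change was -0.02 over the 10 regulators and -0.00 over all genes. Without melatonin replicates 2 and 3 a single melatonin library is left, the spread comes from the vehicle samples alone and the lone library is assumed to vary like them, so values in that setting are given as a description and do not count as replication. The genes past the threshold there were again *Zfp36l1*, *Zc3h12d* and *Rc3h2*. In bulk samples, fewer cells of a type and less RNA per cell cannot be told apart.

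**Figure D1:**
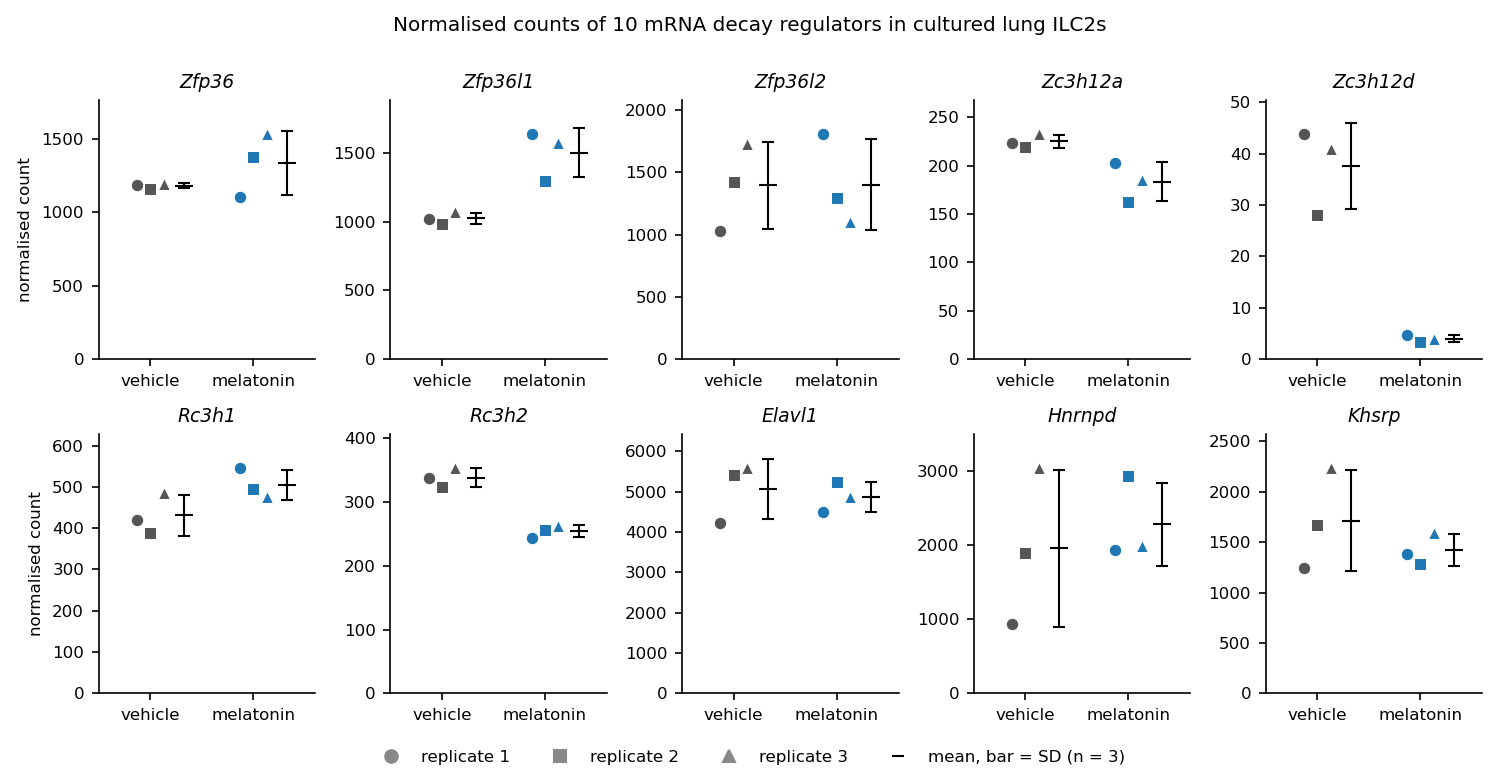
Normalised count (vertical axis, linear from 0) of each of the 10 regulators in the 3 vehicle and 3 melatonin samples, with marker shape for the replicate and the mean with its SD beside the points. The melatonin points of Zfp36l1 lie above all vehicle points, those of Zc3h12a, Zc3h12d and Rc3h2 lie below, and Hnrnpd spreads from 936 to 3044 among vehicle samples.

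Within the *Zfp36* family, whose proteins destabilise AU-rich mRNAs, *Zfp36l1* passed the test with all libraries and the others did not, and no test of *Zfp36l1* against *Zfp36* was made. *Zfp36l1* (ENSMUSG00000021127, chr12:80154528-80160006) had normalised counts of 1020, 984 and 1068 in vehicle replicates 1 to 3 and 1638, 1299 and 1568 in melatonin replicates 1 to 3. Every melatonin sample was above every vehicle sample. The log2 fold change was 0.55 (SE 0.10, 95% interval 0.31 to 0.78, limma adjusted p = 0.0028), a 1.46-fold increase. It stayed past the threshold with each library left out in turn, between 0.48 and 0.65, and in all 13 alternative settings. In melatonin replicate 1 alone it was 0.68.

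*Zfp36* (ENSMUSG00000044786, chr7:28076209-28079710) encodes tristetraprolin, the founding member, which is itself an immediate early gene. It had 1186, 1162 and 1196 normalised counts in vehicle and 1103, 1379 and 1534 in melatonin. The vehicle samples were nearly alike, and melatonin replicate 1 lay below all of them while the other two lay above. Its log2 fold change was 0.17 (SE 0.12, interval -0.10 to 0.44, limma adjusted p = 0.272). Single melatonin libraries moved this value in both directions. Without replicate 1 the log2 fold change was 0.30 (limma adjusted p = 0.0131), and without replicate 3 it was 0.06 (limma adjusted p = 0.669). With replicate 1 as the only melatonin sample it was -0.10. Melatonin replicate 1 is also the library that differs from the other two in its Y-linked counts, and the part of that difference in the result was not tested.

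*Zfp36l2* (ENSMUSG00000045817, chr17:84491132-84495382), the third relative, spread widely in both groups. Its normalised counts were 1032, 1420 and 1730 in vehicle and 1808, 1290 and 1104 in melatonin. The 2 ranges covered nearly the same span. The change on the log2 scale was 0.01 (SE 0.21, interval -0.48 to 0.49, limma adjusted p = 0.980), and its sign changed under several settings. With melatonin replicate 1 as the only melatonin sample it was 0.41.

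Per kilobase of the longest annotated transcript, the 3 family members summed to 1108 ± 102 (SD, n = 3) in vehicle and 1314 ± 73.3 in melatonin samples, without overlap between the groups. Of that sum *Zfp36l1* made up 28.9% ± 2.17 in vehicle and 35.5% ± 2.40 in melatonin, with every melatonin share above every vehicle share. The log2 ratio of *Zfp36l1* to *Zfp36l2* per kilobase was -0.18 ± 0.35 in vehicle and 0.35 ± 0.34 in melatonin, a difference of 0.54 (exact two-sided permutation p = 0.2, adjusted p = 0.333 over 5 ratios). With 3 samples against 3 this test cannot go below 0.1. In replicates 1 to 3 this ratio was 0.21, -0.30 and -0.47 in vehicle and 0.09, 0.24 and 0.74 in melatonin. Single libraries, such as melatonin replicate 3, thus moved the difference. The ratio of *Zfp36* to *Zfp36l2* differed by 0.16 (exact permutation p = 0.8).

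The Regnases are endonucleases that cleave stem-loop mRNAs, and *Zc3h12d* (Regnase-4, also known as TFL), first described in lymphocytes, had the largest change in the set. *Zc3h12d* (ENSMUSG00000039981, chr10:7708080-7746160) had normalised counts of 43.9, 28.1 and 40.9 in vehicle and 4.67, 3.28 and 4.02 in melatonin. All melatonin samples were far below all vehicle samples. This gave a log2 fold change of -2.94 (SE 0.38, interval -3.79 to -2.09, limma adjusted p = 0.00042). In estimated counts this is 116 over the vehicle libraries against 12 over the melatonin libraries, a depth-corrected ratio of 9.32-fold with a 95% interval of 5.14 to 18.6 that covers counting error only. The call held with each library left out (-3.13 to -2.82), and melatonin replicate 1 alone gave -2.74. The gene is of low abundance and the size of the log2 fold change moved with the pseudocount, from -3.19 at 0.1 to -1.75 at 10.

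Markers of T and B cells, lymphocytes in which this gene is known, moved in the same direction. Of the 8 markers, 4 were listed and all 3 tested were lower, beside 24.7% lower of all genes tested. The summed normalised count was 208 to 260 in vehicle and 40.4 to 120 in melatonin samples. *Cd3e* made up most of each sum, with 212, 226 and 192 in vehicle and 117, 40.4 and 39.2 in melatonin. *Trac* was low, with 5.60, 13.1 and 6.30 in vehicle and 1.87, 0 and 1.01 in melatonin. *Cd4*, *Cd8a* and *Ms4a1* were among those with no listed value. The sort excluded cells with surface CD3, CD4, CD5, T cell receptor or B220. The part of these transcripts in the *Zc3h12d* result was not tested.

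*Zc3h12a* (ENSMUSG00000042677, chr4:125012216-125021711), encoding Regnase-1, which cleaves its own mRNA through its 3′ UTR, had 223, 219 and 233 normalised counts in vehicle and 203, 163 and 185 in melatonin. Melatonin samples lay below vehicle samples without overlap. In limma the log2 fold change was -0.30 (SE 0.14, interval -0.61 to 0.01, limma adjusted p = 0.0991), which did not pass the threshold. It passed without melatonin replicate 1 (-0.37, adjusted p = 0.044), and the value was -0.15 with that replicate as the only melatonin sample. The log2 ratio of *Zc3h12a* to *Zc3h12d* per kilobase moved from 2.88 ± 0.32 to 5.81 ± 0.10. The difference was 2.93 (exact permutation p = 0.1, the smallest possible, adjusted p = 0.25). *Zc3h12d* thus made up 12.1% ± 2.26 of the pair in vehicle and 1.75% ± 0.116 in melatonin. The pair leaves out *Zc3h12c* (Regnase-3), with normalised counts of 166, 159 and 209 in vehicle and 193, 173 and 204 in melatonin.

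Of the 2 Roquin genes, whose proteins overlap in function, *Rc3h2* passed the test with all libraries and *Rc3h1* did not. *Rc3h2* (Roquin-2, ENSMUSG00000075376, chr2:37258909-37313172) had normalised counts of 337, 323 and 353 in vehicle and 244, 256 and 262 in melatonin. The groups were tight and did not overlap. The log2 fold change was -0.41 (SE 0.11, interval -0.66 to -0.16, limma adjusted p = 0.0149), a level 1.33-fold lower. The size changed little when single libraries were left out (-0.44 to -0.38), but the adjusted p was 0.0533 without vehicle replicate 1 and 0.0600 without vehicle replicate 3.

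*Rc3h1* (Roquin-1, ENSMUSG00000040423, chr1:160733982-160802548), the better known paralog and the target of the sanroque mutation, had 420, 388 and 485 normalised counts in vehicle and 545, 495 and 474 in melatonin. The groups overlapped through vehicle replicate 3 and melatonin replicate 3. Its log2 fold change was 0.23 (SE 0.12, interval -0.04 to 0.50, limma adjusted p = 0.133). Set against each other per kilobase, the log2 ratio of *Rc3h1* to *Rc3h2* was 0.25 ± 0.10 in vehicle and 0.89 ± 0.16 in melatonin, a difference of 0.64 without overlap (exact permutation p = 0.1, the smallest possible, adjusted p = 0.25). *Rc3h1* thus made up 54.3% ± 1.74 of the pair in vehicle and 65.0% ± 2.46 in melatonin, while their sum per kilobase was 71.2 ± 5.83 and 69.8 ± 2.37.

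**Figure D2:**
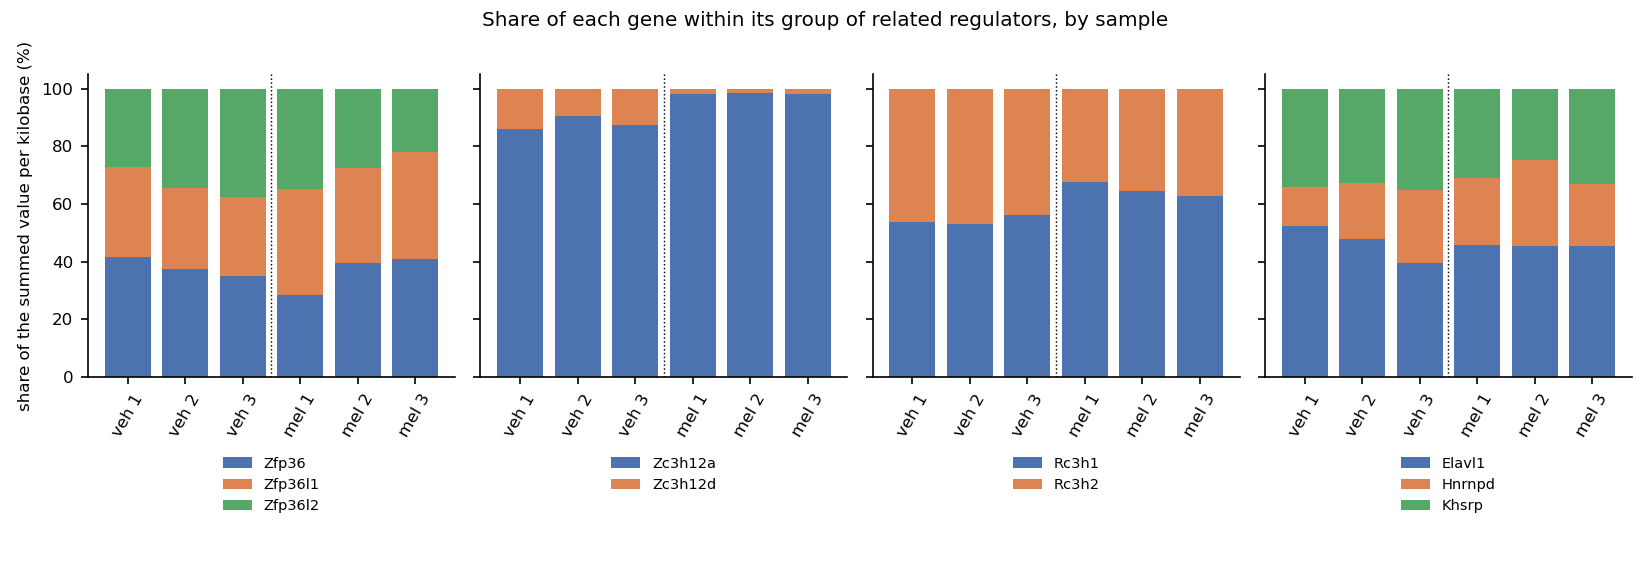
Share (%) of each gene in the summed value per kilobase of its group of related regulators, 1 stacked bar per sample, vehicle samples left of the dotted line and melatonin samples right of it. Zc3h12d shrinks to under 2% of its pair with Zc3h12a in all 3 melatonin samples. Rc3h1 takes 62.8% to 67.7% of the Roquin pair there against 52.9% to 56.2% in vehicle.

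The 3 remaining regulators bind AU-rich elements through other domains, and none passed the test. *Elavl1* (ENSMUSG00000040028, chr8:4332576-4375489), encoding the stabilising factor HuR, had 4225, 5405 and 5585 normalised counts in vehicle and 4495, 5233 and 4857 in melatonin. The melatonin samples lay inside the vehicle range. The change on the log2 scale was -0.05 (SE 0.12, interval -0.31 to 0.21, limma adjusted p = 0.727), and -0.16 with melatonin replicate 1 alone. The 3′ end of *Elavl1* overlaps 829 bases of *Ccl25* on the other strand, and without strand information reads from such a stretch cannot be told apart. *Hnrnpd* likewise overlaps 1485 bases of *Gm17092* on the other strand, which had 11.5, 16.0 and 29.8 in vehicle and 21.0, 43.6 and 22.7 in melatonin. *Rc3h1* overlaps 3578 bases of *Gm37653* on the same strand, which had 4.67, 3.75 and 4.20 in vehicle and 14.9, 12.0 and 4.02 in melatonin.

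*Hnrnpd* (ENSMUSG00000000568, chr5:100103794-100127029), encoding the AUF1 isoforms, had 936, 1895 and 3044 normalised counts in vehicle and 1939, 2933 and 1990 in melatonin. The vehicle samples alone differed by 3.25-fold, a spread larger than that of 99.6% of the genes whose mean was 100 or more. This gave a log2 fold change of 0.36 (SE 0.36, interval -0.46 to 1.18, limma adjusted p = 0.438), and it was -0.10 without vehicle replicate 1 and 0.14 with melatonin replicate 1 as the only melatonin sample. *Khsrp* (ENSMUSG00000007670, chr17:57328051-57338587), encoding KSRP, had 1242, 1667 and 2235 normalised counts in vehicle and 1380, 1284 and 1593 in melatonin. Vehicle replicate 1 was the lowest of all 6 samples and vehicle replicate 3 the highest. In limma the log2 fold change was -0.24 (SE 0.19, interval -0.67 to 0.19, limma adjusted p = 0.320), and without vehicle replicate 1 it was -0.45 (adjusted p = 0.0442).

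*Zfp36l2*, *Hnrnpd* and *Khsrp* shared a pattern among the vehicle samples, lowest in replicate 1 and highest in replicate 3. Of the 9990 genes whose mean reached 100, 341 (3.41%) had this order with a range of at least 1.5-fold, and 177 had another order with such a range. The median log2 fold change with melatonin was 0.85 over the 341 genes, 0.24 over the 177 and 0.05 over all 9990. The vehicle libraries thus disagreed on a block of genes that holds 3 of the 10 regulators, and the part of this disagreement in their test results was not tested. Vehicle replicate 3 also stood apart in airway epithelium markers, 7 of 9 of which were listed, with a sum of 2355 against 1018 and 950 in the other vehicle samples and 1043 to 1260 in melatonin samples. Of the 6 tested, 5 were lower and 1 was higher, beside 24.7% lower and 24.5% higher of all genes tested. The higher one, *Epcam*, made up most of the melatonin sums, with 623, 745 and 634 in vehicle and 1230, 1016 and 1046 in melatonin. Among the lower ones, *Scgb1a1* was the largest part of the sum in vehicle replicate 3. It had 95.2, 21.5 and 1045 in vehicle and 0, 0 and 1.01 in melatonin. *Sftpc*, also lower, went from 155, 122 and 389 to 6.54, 5.46 and 3.02. *Krt8* and *Sftpb* were at 0 in all melatonin samples. The sort took cells with surface CD45, and the part of these transcripts was not tested either.

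**Figure D3:**
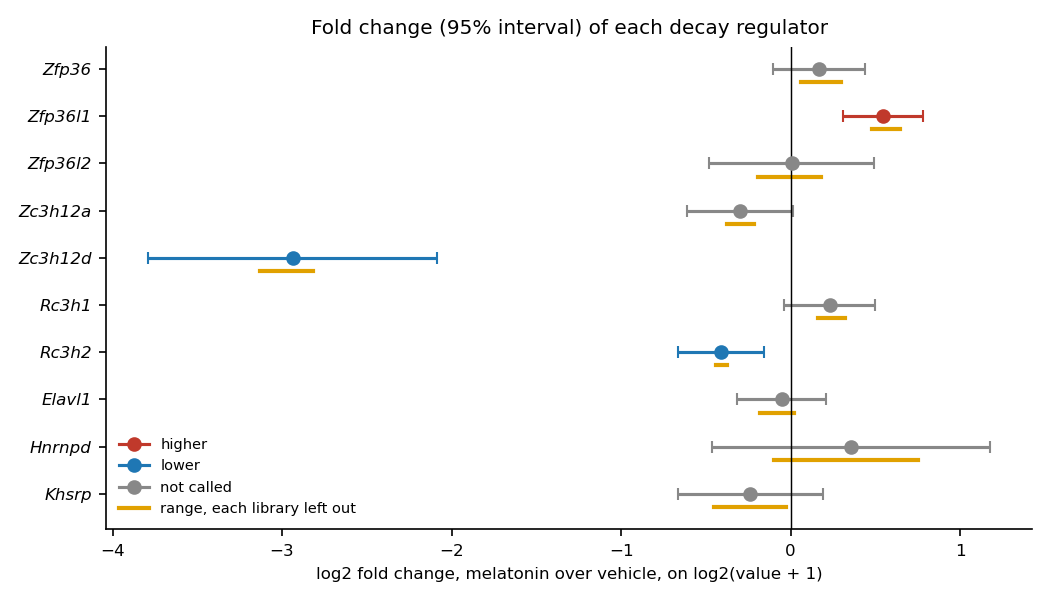
Log2 fold change of melatonin over vehicle for each regulator with its 95% limma interval (horizontal axis, log2 scale), red for higher, blue for lower, grey for not called, with the range over leaving out each library in yellow. Zc3h12d at -2.94 stands apart, Zfp36l1 at 0.55 and Rc3h2 at -0.41 have intervals clear of 0, and Hnrnpd has the widest leave-one-out range beside its interval.

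Compared per kilobase of transcript, the levels of the 10 genes fell into 2 tiers in vehicle samples. *Elavl1* (560 ± 81.6), *Khsrp* (420 ± 122), *Zfp36* (419 ± 6.26), *Zfp36l2* (370 ± 92.9), *Zfp36l1* (319 ± 13.2) and *Hnrnpd* (254 ± 137) formed the upper tier, where each neighbour in the order overlapped the next. Below them came *Zc3h12a* (64.3 ± 2.01), *Rc3h1* (38.7 ± 4.44), *Rc3h2* (32.5 ± 1.41) and *Zc3h12d* (8.86 ± 1.97), with no overlap between neighbours. In melatonin samples *Zfp36l1* moved up to 468 ± 55.8, beside *Zfp36* at 474 ± 77.4. *Zc3h12a* at 52.4 ± 5.70 then overlapped *Rc3h1* at 45.4 ± 3.28. The stem-loop binders were thus the scarcer mRNAs of the set in both groups.

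Among other members of the same families, *Hnrnpdl* (log2 fold change -0.42, limma adjusted p = 0.014) and *Hnrnpab* (-0.37, adjusted p = 0.047), relatives of AUF1, were lower, and *Zc3h12c*, Regnase-3, was at 0.10 (adjusted p = 0.62). Neither relative passed without vehicle replicate 2, and 1 of them passed without vehicle replicate 1, vehicle replicate 3 or melatonin replicate 2. The shares over all genes tested were 24.5% higher and 24.7% lower. Of 14 other proteins that bind AU-rich elements or stem-loops, 3 were higher, 8 were lower and 3 did not pass, with a median of -0.38. Without vehicle replicate 3 there were 5 lower, and without vehicle replicate 1 there was 1 higher. *Syncrip* (-0.94), *Ncl* (-0.73), which encodes nucleolin, and *Tial1* (-0.62) had the largest falls among those with a mean of at least 100. *Arid5a*, which protects stem-loop mRNAs from Regnase-1, rose from 6271, 6544 and 6801 to 7737, 9299 and 7490 normalised counts (log2 fold change 0.32, SE 0.10, limma adjusted p = 0.0227). *Tia1* (0.41) rose while its paralog *Tial1* fell.

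Regulators of this kind act by bringing deadenylases, decapping enzymes or the exosome to a transcript. Over all genes tested, 24.5% were higher and 24.7% lower, 49.2% in either direction. Of 19 genes for deadenylases and their adaptors, 7 were higher, 3 were lower and 9 did not pass, with a median of 0.05. With single libraries left out, 6 to 9 of the 19 were higher and 2 to 3 lower. The highest were the BTG/TOB adaptors, antiproliferative proteins that link the CCR4-NOT deadenylase to mRNAs. *Tob1* went from 279, 281 and 269 to 1067, 701 and 657 normalised counts (log2 fold change 1.51, SE 0.17, limma adjusted p = 0.00027). *Btg2* went from 693, 655 and 615 to 2650, 1478 and 1477 (1.46, SE 0.21, limma adjusted p = 0.00065), and *Btg1* from 4698, 4576 and 4430 to 10704, 8311 and 8042 (0.97, SE 0.11, limma adjusted p = 0.00026). For these 3 genes every melatonin sample was above every vehicle sample and melatonin replicate 1 was the highest. The scaffold *Cnot1* was lower (-0.41), as was the poly(A)-binding protein gene *Pabpc1* (-0.51). *Cnot6l*, a catalytic subunit, was higher (0.78), and *Tob2* was at -0.14 (limma adjusted p = 0.19).

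Among decapping and exosome genes, more were lower than higher, beside 24.5% higher and 24.7% lower of all genes tested. No test of the lists was made. Of 18 genes for decapping and 5′ decay, 2 were higher, 8 were lower and 8 did not pass, with a median of -0.30. Of the 8, 6 encode subunits of the LSM ring that binds deadenylated ends, led by *Lsm7* (-0.84), *Lsm4* (-0.78) and *Lsm5* (-0.75). These subunits are shared with the nuclear ring of the splicing machinery, and *Lsm1* (0.31), the subunit found in the cytoplasmic ring alone, rose, as did *Edc3* (0.27). Of 15 exosome and Ski complex genes none was higher, 9 were lower and 6 did not pass, with a median of -0.29, led by the nuclease *Dis3* (-0.85) and the core subunits *Exosc5* (-0.59) and *Exosc7* (-0.56). Of 10 genes for UPF1 and SMG factors, 1 was higher, 2 were lower and 7 did not pass. Single libraries moved these counts. The number of lower exosome genes was 5 without any one of the vehicle replicates and 7 to 9 without any one of the melatonin replicates, and 2 exosome genes were higher without melatonin replicate 3. Other settings on all 6 libraries also gave higher exosome genes, 3 with sample weights and 1 each with total scaling, quantile normalization and GC correction, and limma without trend gave 5 lower. Lower decapping genes numbered 7 to 9 over the libraries left out, and the higher ones numbered 1 without vehicle replicate 2 or 3 or melatonin replicate 2, 3 without melatonin replicate 3, and 0 with upper quartile scaling or length correction. UPF1 and SMG calls were too few to hold, with 0 to 2 higher and 0 to 3 lower.

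The regulators are themselves controlled by proteases, ligases and kinases. MALT1 cleaves Regnase-1 and Roquins after activation, and N4BP1 is a related nuclease. For comparison, 24.5% of all genes tested were higher and 24.7% lower. Of 10 genes of the MALT1 module and partners, 4 were higher and none was lower, with a median of 0.19. These were *N4bp1* (0.40), *Bcl10* (0.37), the ubiquitin ligase gene *Btrc* (0.32), whose product marks Regnase-1 for degradation, and the kinase gene *Ikbkb* (0.28). Of the 10, 1 passed without vehicle replicate 1, vehicle replicate 2 or melatonin replicate 2, and with upper quartile scaling or transcript length corrected. There were 2 without vehicle replicate 3, with quantile normalization, with limma without trend and with a replicate block. *Malt1* itself was at 0.10 (limma adjusted p = 0.72). Tristetraprolin is inactivated by phosphorylation through p38 and MK2 and reactivated by the phosphatase PP2A. Of 15 genes of that axis, 4 were higher and 2 were lower. Without vehicle replicate 1 there were 2 higher, and none was lower without any one vehicle replicate or without melatonin replicate 2. On all libraries, none was lower with total scaling, quantile normalization, a replicate block or limma without trend, the last of which gave 2 higher. *Map2k3* (0.72) and *Mapk14* (0.62), the kinase that activates p38α and p38α itself, rose without overlap. *Ppp2cb*, a catalytic subunit of PP2A, was higher (1.23, limma adjusted p = 0.024) although melatonin replicate 3 at 262 lay between vehicle replicates 1 and 3. The other PP2A genes in the list went differently. *Ppp2r1a* was lower (-0.21, limma adjusted p = 0.044), and the more abundant *Ppp2ca* did not pass (0.53, limma adjusted p = 0.136).

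**Figure D4:**
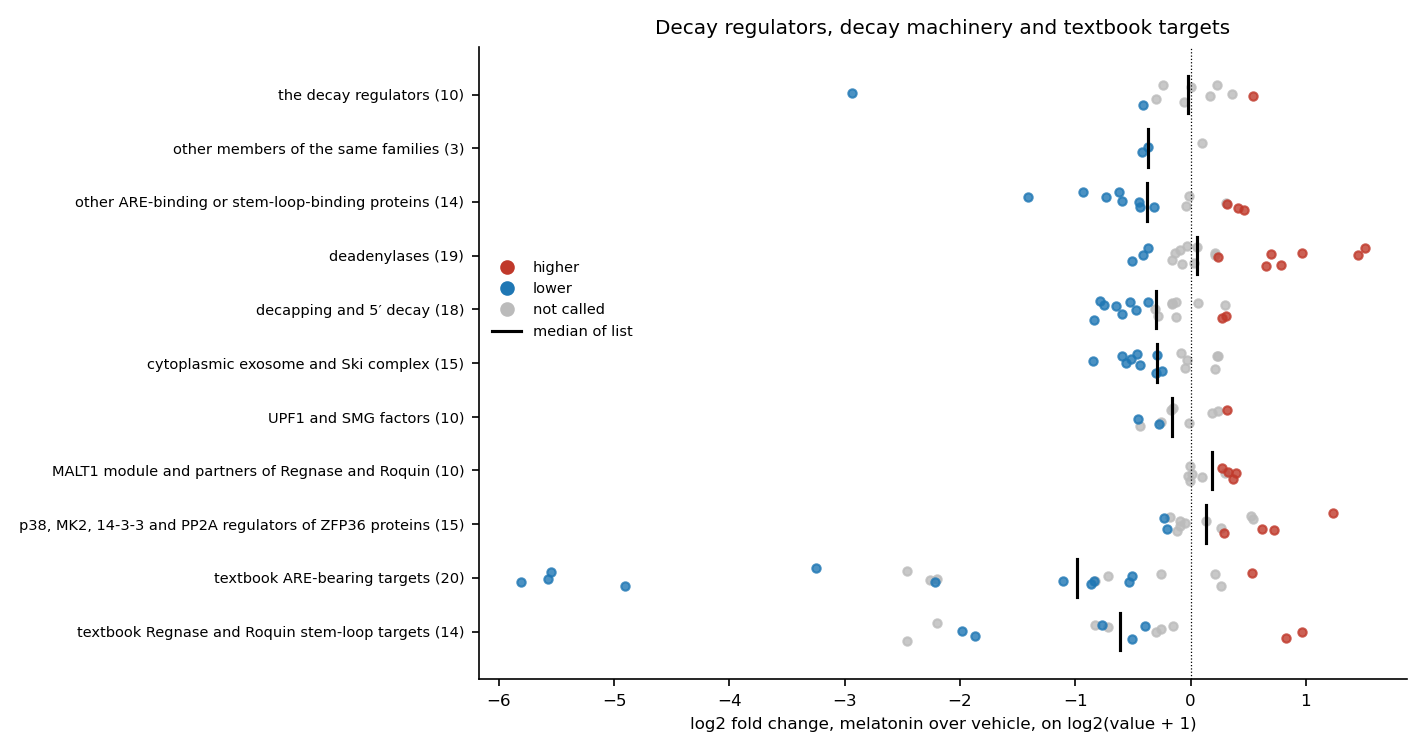
Log2 fold change (horizontal axis) of every tested gene in the 10 regulators and in 10 lists around them, coloured by call, with the number tested in brackets and a black bar at the list median (ARE, AU-rich element). Zc3h12d lies far below the other regulators, which span -0.41 to 0.55, the exosome genes past the threshold in this fit are all lower, and the 3 points left of -5, Ccl3, Ccl4 and Ifng, have melatonin values at or near 0 and move with the pseudocount.

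Of the textbook targets of these regulators, more were called lower than higher, beside 24.5% higher and 24.7% lower of all genes tested. No test of the target lists was made. Of 20 mRNAs known for AU-rich elements, 1 was higher, 11 were lower and 8 did not pass, with a median of -0.99. A nonamer of *Csf2* and the nonamer of *Il13* are shown, in capitals, because these cytokines are main products of ILC2s. The *Csf2* site is 1 of 4 overlapping nonamers, so its lower case flanks belong to the neighbouring copies. The sites shown lie at chr11:54138155-54138175 and chr11:53522572-53522592, both on the minus strand.
Csf2: atttatTTATTTATTtattta
Il13: ttgatcTTATTTATTatggtt
*Csf2*, encoding GM-CSF, with 9 partly overlapping heptamers in its 3′ UTR, had 6084, 5703 and 5370 normalised counts in vehicle and 2973, 3081 and 3363 in melatonin (log2 fold change -0.87, SE 0.08, limma adjusted p = 0.00011). *Il13*, with 1 heptamer, had 1952, 1758 and 1918 and then 340, 363 and 525 (-2.22, SE 0.16, limma adjusted p = 3.1e-05). No relation between the number of sites and the size of the change was tested. *Lif* (-3.25, 5 heptamers), *Ier3* (-1.11, 4), *Il4* (-0.84, 2), *Tnf* (-0.51, 8) and *Myc* (-0.53, none) were also lower, and *Fos* (0.53, 2) was higher.

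*Il10*, which encodes an anti-inflammatory cytokine, was lower (928, 908 and 772 normalised counts against 8.40, 40.4 and 61.3). The chemokine genes *Ccl3* (161, 135 and 93.4 against 0, 2.19 and 5.03) and *Ccl4* (126, 161 and 135 against 0, 2.19 and 4.02) were lower with melatonin values near the floor of 3 counts. *Ifng* had 76.5, 32.8 and 37.8 in vehicle and was at 0 in all 3 melatonin samples, which makes it at least 16.2-fold lower against 3 counts per library. Markers of macrophages and neutrophils, cells that also make these chemokines, summed to 3960 to 4808 in vehicle and 416 to 2428 in melatonin samples. Of 9 markers, 8 were listed and 5 were lower, beside 24.7% lower of all genes tested. *Chil3* made up most of the vehicle sums and did not pass (limma adjusted p = 0.0549). It had 2373, 3460 and 2878 in vehicle and 54.2, 1640 and 957 in melatonin. The sort excluded cells with surface CD11b, CD11c or Gr-1, which macrophages and neutrophils carry. The part of these transcripts in these results was not tested.

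Of 14 textbook targets of Regnase-1 and the Roquins, *Zc3h12a* among them, 2 were higher, 5 were lower and 7 did not pass, a called share close to the 49.2% of all genes. The median was -0.61, but -0.35 over the 8 with a mean of at least 100. That set is without *Cxcl1*, *Cxcl2*, *Il6*, *Il2*, *Ptgs2* and *Ctla4*, of which *Ctla4* was called lower (-1.98). *Cxcl1*, *Cxcl2*, *Il6*, *Il2*, *Ptgs2* and *Tnf* also stand in the AU-rich list. The stem-loops shown have the stem and loop in capitals and come from *Tnf* (chr17:35418556-35418580, minus strand), *Nfkbid* (chr7:30127822-30127846, plus strand) and *Tnfrsf4* (chr4:156100993-156101017, plus strand), which fell, and from *Icos* (chr1:61038640-61038664, plus strand), which did not pass the test and has the same capital letters as *Nfkbid*.
Tnf: gacatgTTTTCTGTGAAAAcggagc
Nfkbid: taggtgATTTCTGTGAAATcgagcc
Tnfrsf4: cctatgTATGCTATGCATActacct
Icos: aacaaaATTTCTGTGAAATaaaatc
The letters TTCTGTGAA at the centre stand in *Tnf*, *Nfkbid*, *Icos* and both Roquin mRNAs, and also in a site of *Ier3*, so they occur in mRNAs that fell and in some that did not pass the test. *Ctla4* (-1.98), *Tnfrsf4* (-1.87), which encodes OX40, *Il2ra* (-0.77), *Tnf* (-0.51) and *Nfkbid* (-0.40) were lower. *Rel*, an NF-κB subunit gene, went from 105, 53.4 and 72.4 to 121, 153 and 166 normalised counts (log2 fold change 0.97, SE 0.26, limma adjusted p = 0.0136). *Nfkbiz*, encoding IκBζ, went from 450, 396 and 435 to 812, 704 and 757 (0.82, SE 0.10, limma adjusted p = 0.00037). *Icos*, a co-stimulatory receptor gene with 3 stem-loops by the search, was at -0.15 (limma adjusted p = 0.24). Of these 14, 3 were lower without vehicle replicate 1 or 3 or melatonin replicate 2, and also with total scaling on all libraries. Among the AU-rich targets there were 9 to 11 lower and 1 to 2 higher with single libraries left out, 2 being higher without melatonin replicate 3.

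Across the 11961 tested genes with an annotated 3′ UTR, those with a heptamer had a higher median than those without. The median did not grow steadily with the number of copies. The 3852 genes with at least 1 TATTTAT showed a median of 0.13 on the log2 scale, with 33.3% higher and 19.2% lower, and the 8109 genes without it had a median of -0.01, with 25.2% higher and 27.2% lower. Genes with 1, 2 and 3 or more heptamers had medians of 0.12, 0.19 and 0.10, and genes with no, 1, 2 and 3 or more nonamers had medians of 0.03, 0.14, 0.10 and -0.01. The genes with the heptamer had longer 3′ UTRs, with a median of 2402.5 against 935 bases. Within the shortest, middle and longest parts of the 3′ UTR length range, medians were 0.01, 0.16 and 0.15 with the heptamer and -0.13, 0.06 and 0.09 without. After a curve over transcript length was removed, they were 0.07 with and -0.03 without it. These values are given as a description, since genes are not independent replicates and 3′ UTR length and base composition go with the motif.

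**Figure D5:**
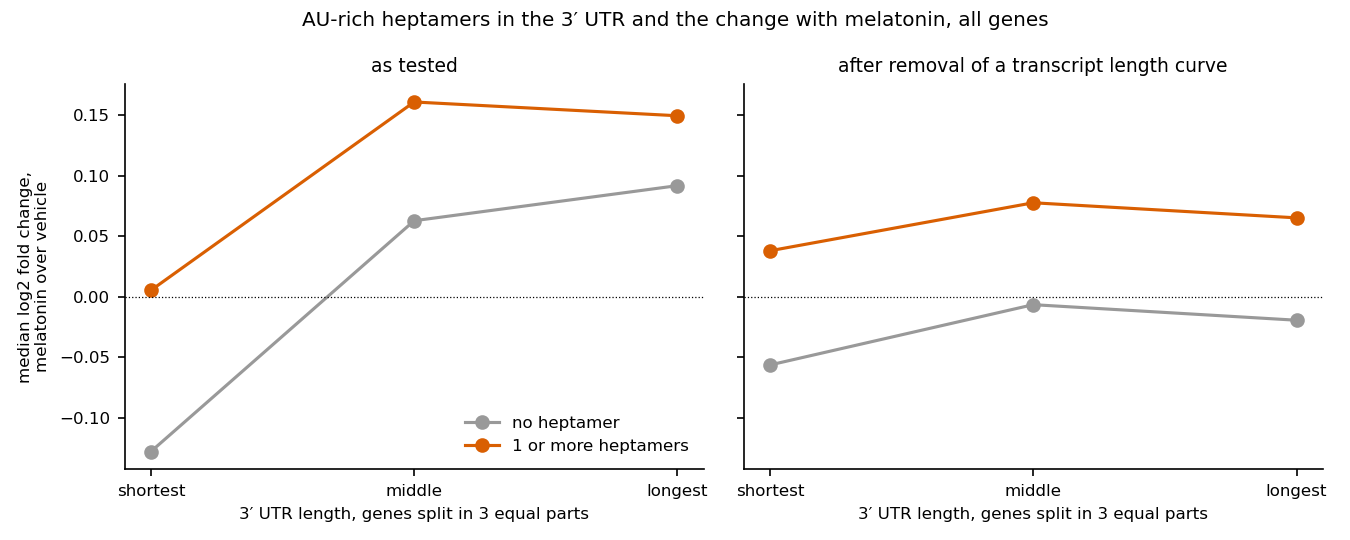
Median log2 fold change (vertical axis) of the tested genes with an annotated 3′ UTR, with at least 1 TATTTAT heptamer in it (orange) and without (grey), by 3′ UTR length (horizontal axis), as tested on the left and after length correction on the right. The orange points lie above the grey points in each length class of both panels, by 0.06 to 0.13 as tested.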

How the data were processed

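RNA from 3 melatonin and 3 vehicle samples was sequenced, and the study's methods give SMARTer Ultra Low Input cDNA, a kit that does not mark strand. The authors trimmed reads at Phred 35 to at least 25 bases, aligned them to mm39, assigned them to Gencode M33 genes with an E/M algorithm that divides shared reads, and scaled by the median ratio method. Their methods also state a filter on genes under 10 counts in all samples, but 1876 listed genes stayed under 10 estimated counts in each sample, with sums over the 6 samples of 10 or more. The deposited signal is thus an estimated count divided by a size factor, called a normalised count here. At a tolerance of 0.01, 64.7% of values were whole multiples of the value of a single read, so whole reads were not recovered and the main test was not a count model. Estimated counts, from dividing by that value, served for the counting interval of *Zc3h12d* and for voom as an alternative.

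Genes reaching 10 in any sample (14419 of 16381) were tested with limma 3.58.1 in R 4.3.3 (lmFit, eBayes with trend) on log2(value + 1), with Benjamini-Hochberg adjustment and a threshold of 0.05. The script was tested on simulated data. Fold changes on this scale understate changes of low genes. Ratios of related genes per kilobase were compared by exact two-sided permutation, and no p was computed over the lists. 3′ UTRs and positions came from GENCODE M39 on GRCm39, which gave names to 16334 genes. Genes named beyond the 10 regulators are those called with the 3 largest changes in each list with a mean of at least 100, the called targets, and genes a result turns on. The members, the lists and the motifs were chosen with earlier results of these data known, and the split by 3′ UTR length was added after seeing the data. Proteins were not analysed here. Alternatives were other pseudocounts, filters, scalings and limma settings, voom, length and GC corrections, a replicate block and leaving out libraries. Python 3.11.15 with scipy 1.17.1, pandas 2.3.3 and numpy 2.4.6 made the tables, and matplotlib 3.10.9 the figures.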

Additional observations from a re-analysis of the deposited data

How the results depend on the processing

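Of 516 values under alternative settings, 469 kept their direction and their side of the threshold or their size, 25 moved, 13 reversed, 7 passed the threshold only under the alternative and 2 lost their call. *Zfp36l1* and *Zc3h12d* kept their calls in every setting run, except that *Zc3h12d* was not tested at a mean of at least 100, where 1 regulator was lower. Sample weights gave 2 higher regulators, with *Zfp36* at 0.23 (adjusted p = 0.048). *Zc3h12a* passed with upper quartile scaling (-0.38), sample weights (-0.36) and length correction (-0.38). The sign of *Zfp36l2* reversed with upper quartile scaling (-0.076), quantile normalization (-0.039), sample weights (-0.072) and length correction (-0.11), that of *Elavl1* with quantile normalization (0.063), and that of *Zfp36* without melatonin replicates 2 and 3 (-0.10). With each library left out, the number of higher regulators was 1 to 2 and of lower regulators 1 to 3, and log2 fold changes ranged over 0.062 to 0.30 for *Zfp36*, -0.19 to 0.18 for *Zfp36l2*, -0.37 to -0.22 for *Zc3h12a*, -0.44 to -0.38 for *Rc3h2*, -0.18 to 0.022 for *Elavl1*, -0.10 to 0.75 for *Hnrnpd* and -0.45 to -0.026 for *Khsrp*. The difference in the log2 ratio of *Zfp36* to *Zfp36l2* ranged from -0.10 without melatonin replicate 3 to 0.49 without melatonin replicate 1, and was -0.0028 without vehicle replicate 3. The cause of these shifts was not tested. Upper quartile scaling lowered the share of higher genes among all calls from 49.7% to 41.3%. With a replicate block, 3160 genes were higher and 3278 lower, and no regulator changed its call. Same-numbered samples correlated at -0.11, 0.14 and -0.19 in their deviations from the group means, so the numbers were not taken as pairs. Depth limits *Zc3h12d*, at 3 to 5 estimated counts per melatonin library.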
